A study of Rattus norvegicus with 6 samples.

Results

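The 10 genes described here encode 5 small heat shock proteins (Hspb1, Hspb6, Hspb7, Hspb8 and Cryab) and 5 BAG cochaperones (Bag1, Bag2, Bag3, Bag4 and Bag5). They were chosen by gene symbol, and all 10 symbols were found among the 37209 of the deposited count table. All 10 also passed the filter on low counts, which left 13390 genes for testing. RNA was sequenced from primary bone marrow mesenchymal stem cells (BMSCs) of wild-type rat femur, the stromal progenitors of bone, cartilage and marrow fat. In 3 libraries the cells had been treated with 3% cigarette smoke extract (CSE) for 6 h, and in 3 control libraries the treatment had been serum-free medium for 6 h. All cells had first been grown in medium with fetal bovine serum. The strain, sex and age of the rats and the medium that carried the extract are stated in none of the sources used here. Because no label says that the replicate libraries stem from separate cultures or animals, p-values reflect library-to-library spread that could be technical alone.

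Small heat shock proteins share an alpha-crystallin domain, form large oligomers, and hold unfolding proteins in a soluble state without using ATP. BAG proteins share a domain that binds the ATPase domain of HSP70 and releases its nucleotide, so that the client is let go, and their other regions couple HSP70 to different fates. BAG3 also binds HSPB8 and other small heat shock proteins directly and routes clients to autophagy, whereas BAG1 links HSP70 to the proteasome. Transcription of Hspb1, Cryab and Bag3 is known to be raised by the heat shock factor HSF1, which binds repeats of the unit GAA in alternating orientation, called heat shock elements.

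Promoter sequences are shown first because a heat shock element was searched for in each. RefSeq promoter entries of the assembly GRCr8, which run from 250 bases before to 50 bases after a gene's start, were matched for 8 members, and Cryab and Bag4 had no entry. The count table rests on another build, Rnor_6.0, so these intervals are used for sequence only. A heat shock element of 2 units was searched as GAANNTTC and as TTCNNGAA, each of which reads the same on both strands. It was found in 4 of the 8 members, Hspb1, Hspb6, Hspb8 and Bag3, and in 15.9% of all 33469 promoter entries. No member held 3 units (GAANNTTCNNGAA or its reverse complement), which 0.798% of entries held. The 4 members had the same 8 letters, GAAGTTTC, and 1.39% of entries had these on either strand. This exact run was counted after it had been seen in the members. The matches are shown in capitals within 30 bases each, 5′ to 3′ on the strand of the gene. They lie at chr12:26432412-26432441 on the minus strand for Hspb1, at chr12:45837274-45837303 on the plus strand for Hspb8, at chr1:192533317-192533346 on the plus strand for Bag3, and at chr1:94934212-94934241 on the plus strand for Hspb6.
Hspb1: cttcaactagaGAAGTTTCcagatgggggc
Hspb8: agaagccaggaGAAGTTTCtaggcgcgtga
Bag3: ggatgggaccaGAAGTTTCtagccggccag
Hspb6: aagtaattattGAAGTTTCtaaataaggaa

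The match began 129 bases before the annotated start in Hspb1, 132 in Bag3, 149 in Hspb6 and 23 in Hspb8. Hspb1 had another match, GAACCTTC, 109 bases before its start, and Hspb6 had TTCTAGAA 239 bases before its start. The antioxidant response element core, TGACNNNGC on either strand, which overlaps no heat shock element in these windows, was found in Bag3 alone among the 8 members, as GCCACGTCA 37 bases before the start, and in 12.1% of all entries. The whole 250 bases before the start are given for 1 leading gene of each family, Hspb1 (GRCr8 chr12:26432302-26432551, minus strand) and Bag3 (GRCr8 chr1:192533210-192533459, plus strand), with the heat shock elements in capitals.
Hspb1: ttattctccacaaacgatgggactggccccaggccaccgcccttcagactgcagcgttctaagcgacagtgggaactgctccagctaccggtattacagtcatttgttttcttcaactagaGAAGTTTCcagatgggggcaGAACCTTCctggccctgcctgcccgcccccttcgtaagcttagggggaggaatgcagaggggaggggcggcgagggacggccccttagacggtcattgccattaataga
Bag3: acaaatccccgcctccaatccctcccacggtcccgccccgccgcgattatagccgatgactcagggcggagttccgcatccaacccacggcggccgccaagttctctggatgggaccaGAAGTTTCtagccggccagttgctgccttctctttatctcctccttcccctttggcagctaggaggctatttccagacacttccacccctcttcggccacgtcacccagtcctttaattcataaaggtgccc

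Library totals were 19433637 to 22589327 counts with CSE and 15958621 to 18651194 counts in the control. These groups did not overlap (exact 2-sided permutation p = 0.1, the smallest possible), so depth and treatment cannot be told apart. The TMM scaling factors were apart as well, at 0.932 to 0.944 with CSE and 1.06 to 1.07 in the control. Values below are counts per 1000000 counts of the TMM-scaled library size (CPM), and a log2 fold change is that of CSE over control. Errors are standard errors for log2 fold changes and SD over 3 libraries for CPM. Adjusted p-values come from edgeR's quasi-likelihood test, adjusted over all 13390 tested genes. Most tested genes differed at 6 h, with 36.3% called higher and 37.5% called lower at an adjusted p under 0.05. Every CSE library lay above every control library in 37.2% of tested genes and below in 38.6%. Fewer cells of a type and less RNA per cell cannot be told apart in such bulk libraries. The stromal markers were present, with Thy1 at 1192 CPM and Col1a1 at 28797 CPM in the control, although the surface marker Nt5e had only 7.41 CPM. Of 10 stromal markers 5 were lower with CSE, from Pdgfra at −0.97 to Col1a1 at −0.14, and 3 were higher, with Cd44 at 1.09. They summed to 31820 to 33145 CPM with CSE and 32524 to 35645 CPM in the control, mostly Col1a1, and their part in the members' changes was not tested. Macrophage markers were present as well, with 7 of 8 markers in the table and summed levels of 274 to 291 CPM with CSE and 340 to 348 CPM in the control. Of these 7, 3 were called lower, among them Cd14 with 45.2 CPM in the control and 16.5 CPM with CSE. Cd68 was called higher, and Itgam, C1qa and C1qb did not pass. Endothelial markers summed to 7.59 CPM at most.

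Of the 10 members 7 were called higher with CSE, 2 were called lower and Bag2 did not pass. Over all tested genes the shares were 36.3% called higher and 37.5% called lower. The median log2 fold change of the members was 0.58, against −0.02 over all tested genes. Hspb8, Hspb1 and Bag3 were higher by 12- to 16-fold, and Cryab by 4.70-fold. Hspb6 and Hspb7 were lower, and the changes of Bag1, Bag4 and Bag5 were under 2-fold. Among the tested genes ordered by log2 fold change, Hspb8 stood in place 113 from the top, Hspb1 in place 123, Bag3 in place 154 and Cryab in place 423.

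**Figure D1:**
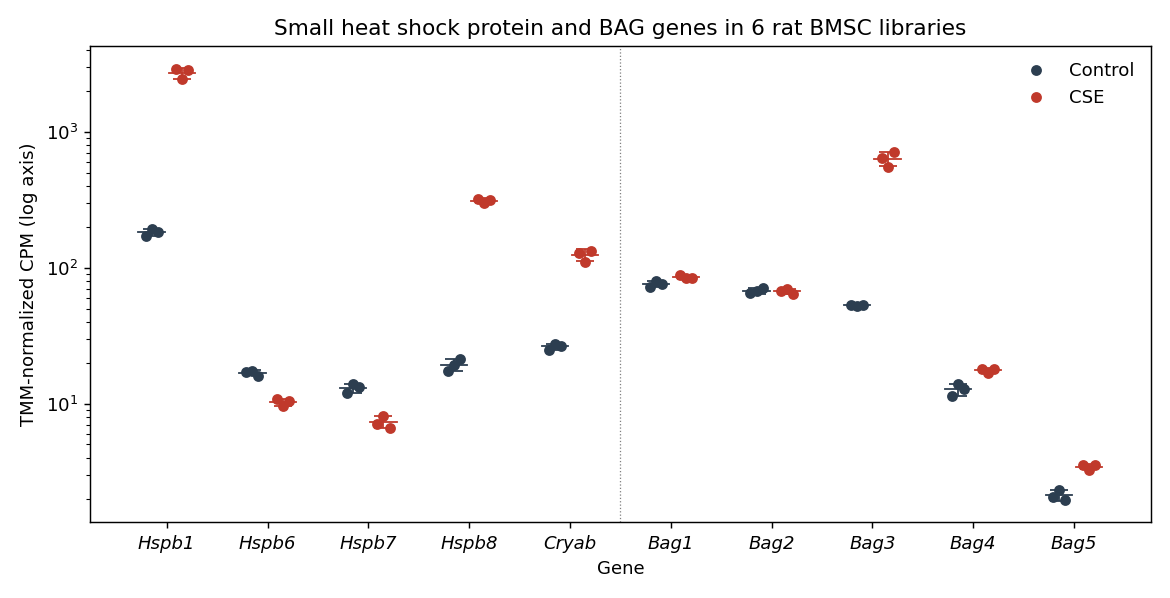
Normalized level of each of the 10 genes in each library (points, CPM on a log axis), with the mean (long bar) and SD (capped bar) of the 3 control and 3 CSE libraries. Hspb1, Hspb8, Cryab and Bag3 sit far above their control level with CSE, Hspb6 and Hspb7 below it, and the points of Bag2 overlap.

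Hspb1 encodes HSP27 (HSP25 in rodents), the most widely expressed small heat shock protein, which also binds actin and intermediate filaments. It had 2882, 2418 and 2819 CPM in the CSE libraries and 172, 193 and 183 CPM in the control libraries. The lowest CSE library was thus far above the highest control library, and the CSE libraries spread more among themselves. Hspb1 rose 14.8-fold (log2 fold change 3.89 ± 0.07, edgeR adjusted p = 6.3e-18), on raw counts of 44342 to 60742 with CSE and 2919 to 3662 in the control.

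Hspb8 encodes HSP22, the small heat shock protein that forms a stable complex with BAG3. Its levels were 321, 297 and 315 CPM with CSE and 17.4, 19.3 and 21.1 CPM in the control. Neither group had a library near the other group, and Hspb8 rose 16.1-fold (4.01 ± 0.07, edgeR adjusted p = 3.6e-18), the largest fold among the 10 genes.

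Cryab encodes alpha-B crystallin, a chaperone of desmin and actin that is abundant in lens and muscle. It had 129, 109 and 133 CPM with CSE against 24.8, 27.4 and 26.7 CPM in the control, with no overlap. Cryab rose 4.70-fold (2.23 ± 0.07, edgeR adjusted p = 3.5e-14). RefSeq places Hspb2, a small heat shock protein gene of muscle, across part of the same stretch. Its log2 fold change was −0.48 ± 0.29 on 25 to 59 counts per library (edgeR adjusted p = 0.15), with overlapping groups. It was called lower by total counts alone (−0.66, edgeR adjusted p = 0.047), without CSE replicate 1 (−0.79, edgeR adjusted p = 0.040) and without control replicate 1 (−0.69, edgeR adjusted p = 0.035). It was nearer 0 without CSE replicate 3 (−0.30, edgeR adjusted p = 0.41) or control replicate 3 (−0.29, edgeR adjusted p = 0.44). Reads of such overlapping genes cannot be told apart where counting ignored strand, and none of the sources used here states the strand setting.

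Hspb6, which encodes HSP20, a regulator of smooth muscle relaxation, went the other way. It had 10.7, 9.60 and 10.4 CPM with CSE and 17.2, 17.3 and 16.0 CPM in the control. All CSE libraries were below all control libraries, and Hspb6 dropped by 0.71 ± 0.10 on the log2 scale (edgeR adjusted p = 3.2e-06), so that the control level was 1.64-fold higher. Hspb6 overlaps Lin37, a cell cycle repressor gene, in RefSeq, and Lin37 was higher with CSE (1.57, edgeR adjusted p = 6.4e-11). Of the next genes beside Hspb6, Proser3, 246 bases away, was lower (−1.32, edgeR adjusted p = 5.8e-08). Psenen on the other side was higher (0.33, edgeR adjusted p = 4.2e-04).

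Hspb7, the gene of a cardiovascular small heat shock protein that binds filamin C, had 7.12, 8.13 and 6.67 CPM with CSE and 11.9, 13.9 and 13.2 CPM in the control. The groups did not overlap, and Hspb7 dropped by 0.84 ± 0.12 (edgeR adjusted p = 4.9e-06), a 1.79-fold higher control level. It was the deeper of the falls among the members and stood in place 2462 from the bottom of all tested genes.

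Smooth muscle markers were mixed beside these 2 falls. Of 7 tested, 4 were lower (37.5% over all tested genes), Cnn1 was higher, and Tagln and Des did not pass. The 7 summed to 9625 to 10693 CPM with CSE against 11102 to 12625 CPM in the control. Within this sum Acta2 went from 4912 CPM in the control to 3200 CPM with CSE. Tagln was at 5881 CPM in the control and 6264 CPM with CSE, with overlapping groups. Lmod1, the leiomodin gene of smooth muscle, was at −2.98, and Myh11, the smooth muscle myosin gene, at −1.25. Striated muscle markers were listed at or near 0, with Myh6, Myl2, Ckm and Myog at 0 in all 6 libraries and a sum of at most 2.02 CPM over 9 genes. The part of smooth muscle-type cells in the lower Hspb6 and Hspb7 was not tested.

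As a family, the 5 small heat shock protein genes summed to 3349, 2842 and 3285 CPM with CSE and to 243, 271 and 260.0 CPM in the control. That is a 12.2-fold ratio of means (exact 2-sided permutation p = 0.1, the smallest that 3 against 3 libraries allow, and 0.1 adjusted over 2 sums). The family's counts also shifted in make-up. Hspb1 held 70.4 to 71.2% of them in the control and 85.1 to 86.0% with CSE, whereas Hspb6 went from 6.15 to 7.07% down to 0.318 to 0.338%. The level of Hspb6 itself was only 1.64-fold higher in the control, and most of the drop in its share reflects the larger family sum with CSE. Cryab held 10.1 to 10.3% in the control and 3.84 to 4.06% with CSE, its rise being smaller than that of Hspb1. These are shares of reads and not of molecules, since transcript lengths were not used here, and for the same reason no order of levels between genes is given.

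**Figure D2:**
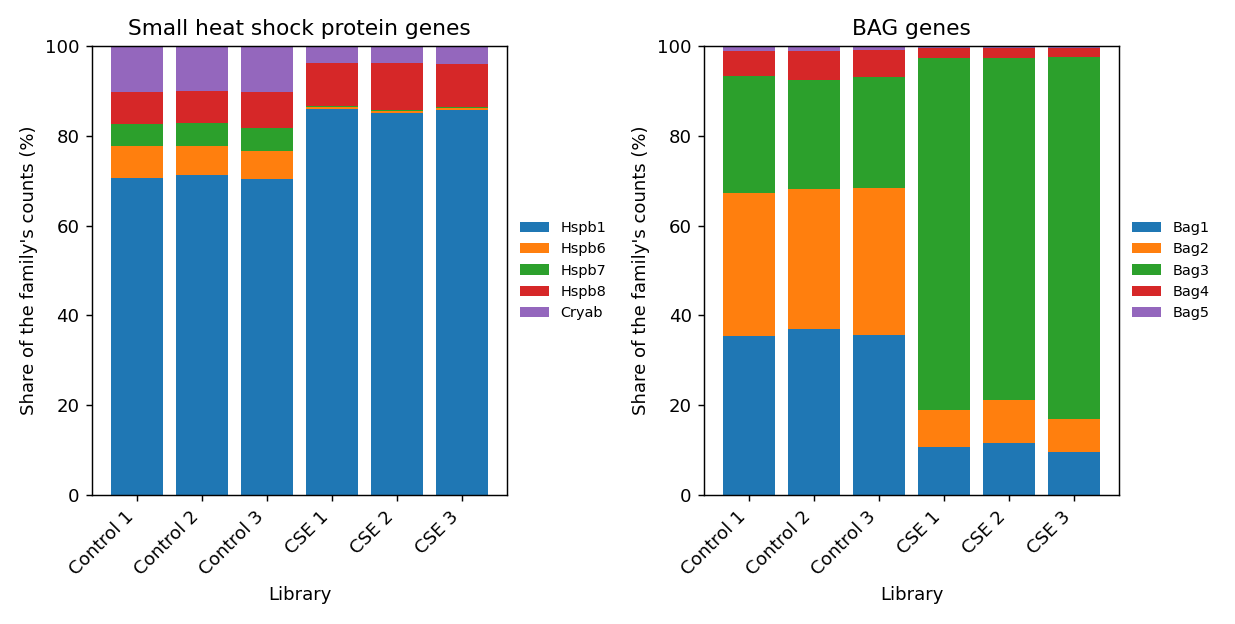
Share of each family's counts (%, stacked from 0 to 100) held by each gene in each of the 6 libraries, for the 5 small heat shock protein genes (left) and the 5 BAG genes (right). Bag3 goes from a narrow band in the 3 control libraries (24.2 to 26.1%) to most of the bar in the 3 CSE libraries (76.1 to 80.6%).

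Bag3 was the BAG gene that stood apart. Its protein carries a WW domain, motifs that bind small heat shock proteins, and the BAG domain, and so joins HSPB8 to HSP70. Bag3 had 644, 553 and 702 CPM with CSE and 52.9, 52.1 and 53.0 CPM in the control. The control libraries were within 1 CPM of each other, and the lowest CSE library was CSE replicate 2. Bag3 rose 12.0-fold (3.59 ± 0.07, edgeR adjusted p = 6.8e-17). RefSeq gives Bag3 no overlapping gene, and its neighbours Tial1 and Inpp5f were at −0.22 and −0.35.

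The other BAG genes were nearly level or changed little. Bag1, whose protein carries a ubiquitin-like domain and docks HSP70 at the proteasome, had 88.7, 84.0 and 83.3 CPM with CSE and 71.8, 79.6 and 76.2 CPM in the control. Although the groups did not overlap, the log2 fold change was only 0.17 ± 0.06 (edgeR adjusted p = 0.011). This call depended on the scaling: it was 0.03 with upper-quartile scaling (edgeR adjusted p = 0.61) and −0.02 by total counts alone (edgeR adjusted p = 0.77), and it also ended without control replicate 1 (0.13, edgeR adjusted p = 0.061).

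Bag2, whose protein inhibits the HSP70-associated ubiquitin ligase CHIP, had 66.7, 69.9 and 64.0 CPM with CSE and 64.5, 67.2 and 70.4 CPM in the control. The groups overlapped, and Bag2 did not pass (−0.01 ± 0.06, edgeR adjusted p = 0.86). Upper-quartile scaling and total counts alone, which lower the median of all genes by 0.14 and 0.19, gave −0.15 and −0.20 and called Bag2 lower (edgeR adjusted p = 0.030 and 0.0049).

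Bag4, known as silencer of death domains for its binding to the TNF receptor, had 18.0, 16.7 and 18.0 CPM with CSE and 11.4, 13.9 and 12.9 CPM in the control. Every CSE library was higher, and Bag4 rose 1.38-fold (0.47 ± 0.10, edgeR adjusted p = 3.2e-04). It overlaps Lsm1, a gene of mRNA decapping, in RefSeq, and Lsm1 rose too (1.27, edgeR adjusted p = 3.8e-11). The share of Lsm1 reads in the Bag4 count was not tested.

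Bag5, which encodes a protein with several BAG domains that binds parkin, was the member with the fewest counts, 60 to 74 with CSE and 35 to 44 in the control. Its levels were 3.51, 3.27 and 3.51 CPM against 2.06, 2.32 and 1.97 CPM, without overlap. Bag5 rose 1.62-fold, with the widest error of the 10 genes (0.70 ± 0.20, edgeR adjusted p = 0.0048).

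**Figure D3:**
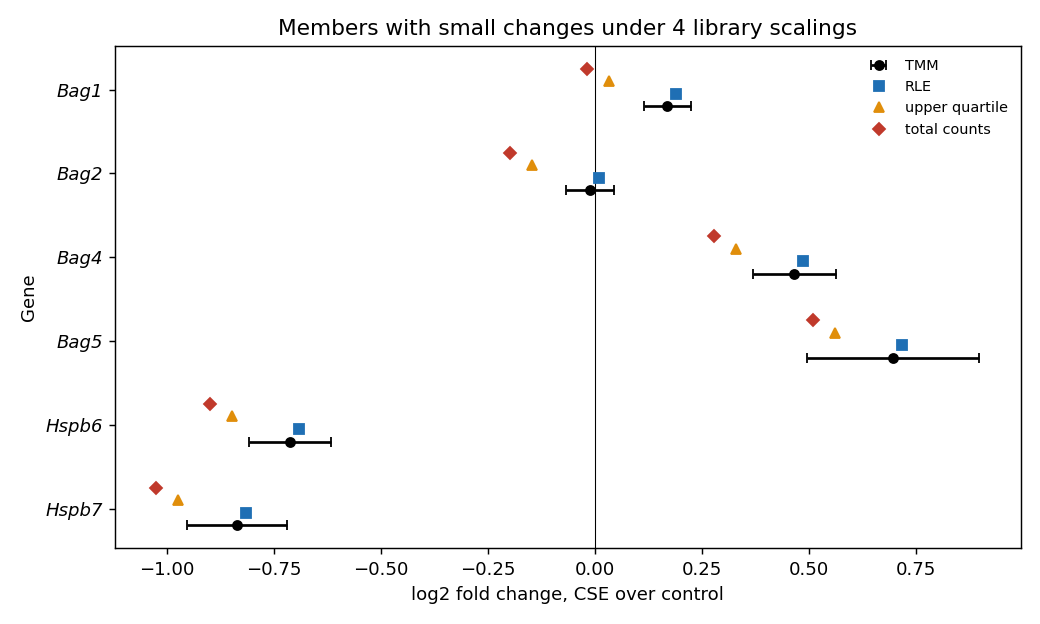
Log2 fold change of CSE over control (horizontal axis) for the 6 members that changed by less than 2-fold with TMM scaling, under 4 ways of scaling the libraries, with the standard error drawn for TMM only. Bag1 and Bag2 lie on or near 0 and cross it depending on the scaling, whereas Bag4 and Bag5 stay above 0 and Hspb6 and Hspb7 below it under all 4.

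The 5 BAG genes summed to 821, 727 and 871 CPM with CSE and 203, 215 and 214 CPM in the control, a 3.83-fold ratio of means (exact 2-sided permutation p = 0.1, and 0.1 adjusted over 2 sums). Bag3 went from 52.7 ± 0.462 to 633 ± 75.2 of these CPM. In the control Bag1 and Bag2 held 35.4 to 37.0% and 31.2 to 32.8% of the family's counts, and with CSE 9.56 to 11.6% and 7.35 to 9.61%.

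Ratios of 2 genes within a library do not depend on how the libraries are scaled, so they show whether members changed unequally. The log2 ratio of Bag3 to Bag1 was −0.44, −0.61 and −0.52 in the control and 2.86, 2.72 and 3.08 with CSE. Every CSE value lay above every control value, a shift of 3.41. Hspb1 over Cryab moved from 2.79, 2.81 and 2.78 to 4.49, 4.47 and 4.40, a shift of 1.66 that exceeded the spread in either group many times over.

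For the partners BAG3 and HSPB8 the log2 ratio of Bag3 to Hspb8 was 1.60, 1.43 and 1.33 in the control and 1.00, 0.90 and 1.16 with CSE. Every CSE library had a lower ratio than every control library, so the rise of Bag3 was the smaller of the pair, with a shift of −0.43. Each of these 3 ratios had an exact 2-sided permutation p of 0.1, the smallest possible, and 0.133 adjusted over 4 ratios. For Hspb1 over Hspb8 the values were 3.30, 3.32 and 3.12 in the control and 3.16, 3.02 and 3.16 with CSE. Here the groups overlapped, and the shift of −0.13 was close to the SD of the control libraries, 0.111 (exact 2-sided permutation p = 0.3, also 0.3 adjusted over 4 ratios). Leaving out 1 library moved this shift between −0.08 (without CSE replicate 2) and −0.19 (without control replicate 3, with no overlap left).

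**Figure D4:**
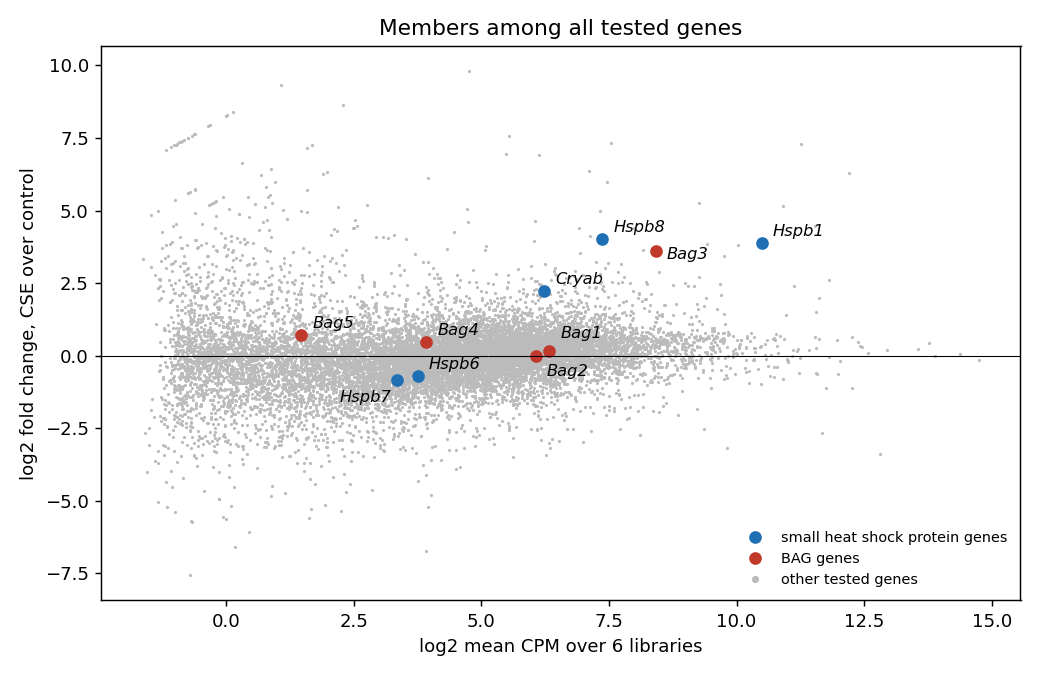
Log2 fold change of CSE over control (vertical axis) against log2 mean CPM over the 6 libraries (horizontal axis) for all 13390 tested genes (grey), with the small heat shock protein genes in blue and the BAG genes in red. Hspb1, Hspb8 and Bag3 lie at the upper edge of the cloud at high mean levels, and Bag1, Bag2 and Bag4 lie inside it.

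The genes whose pattern over the 6 libraries was most like that of the 3 leading members were found by the root-mean-square difference of log2 CPM values, each gene centred on its own mean. The distances reflect mostly the size of the shift between the same 2 groups of libraries. Closest to Bag3 were Ppp1r15a, a stress-induced phosphatase subunit gene (distance 0.066), Agpat9, a lipid synthesis gene (0.085), and Hsph1, the gene of the HSP70 exchange factor HSP110 (0.114). Hsph1 was also the nearest to Hspb1 (0.107), followed by LOC102553452 (0.111) and the sulfiredoxin gene Srxn1 (0.135). The search took genes of a mean of at least 5 CPM over the 6 libraries, which LOC102553452 met only through its CSE level (14.4 CPM against 0.841 CPM in the control). For Hspb8 the nearest were LOC102553452 (0.105), Srxn1 (0.119) and the AP-1 subunit gene Fosl1 (0.123).

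The remaining genes of both families were listed at or near 0 or changed little. Hspb3 and Hspb9 were listed at 0 in all 6 libraries, as were the widely used genes Flna and Hdac6, so no level is drawn from these zeros. Cryaa, the lens crystallin gene, had 1 count in 1 library. Odf1, a sperm tail gene, was below the filter. Of the 3 tested, Hspb2 did not pass with TMM scaling and all 6 libraries, while Hspb11, a ciliary transport gene, and Bag6, whose product handles misplaced membrane proteins, were called higher at 0.35 ± 0.13 and 0.15 ± 0.05 (edgeR adjusted p = 0.025 and 0.010). Neither call held with upper-quartile scaling (0.22 and 0.01, edgeR adjusted p = 0.16 and 0.87), and that of Hspb11 ended without control replicate 1 (0.26, edgeR adjusted p = 0.11) or CSE replicate 1 (0.35, edgeR adjusted p = 0.053). By total counts alone Hspb11 was at 0.17 (edgeR adjusted p = 0.28) and Bag6 at −0.04 (edgeR adjusted p = 0.42).

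Upstream of the small heat shock protein and BAG genes, 2 of 4 genes of heat shock factor control were called higher. That compares with 36.3% of all tested genes. Hsf2, a factor that forms trimers with HSF1, had 85.8 ± 4.63 CPM with CSE and 32.6 ± 4.48 CPM in the control (SD, n = 3), or 1.40 ± 0.08 on the log2 scale (edgeR adjusted p = 3.7e-11). Hsf1 itself was at 0.33 ± 0.06 (edgeR adjusted p = 1.4e-04). Its value was 0.20 with upper-quartile scaling (edgeR adjusted p = 0.01) and 0.15 by total counts alone (edgeR adjusted p = 0.047). Hsf4 (−0.07 ± 0.23) and Hsbp1, the gene of an HSF1-binding inhibitor (−0.04 ± 0.05), did not pass, although upper-quartile scaling and total counts alone called Hsbp1 lower (−0.17 and −0.22).

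HSP70 genes, whose products the BAG domain binds, and the genes of other exchange factors were all called higher, 9 of 9, with a median of 2.52. The share called higher over all tested genes was 36.3%. Hspa1b, an inducible HSP70 gene, had 348 ± 67.1 CPM with CSE and 5.56 ± 0.252 CPM in the control. Hsph1 went from 140 ± 0.0368 to 1943 ± 249 CPM (3.80 ± 0.07), close to the change of Bag3, and Hspa8, the constitutive HSP70 gene, was at 2.58 ± 0.07. Hspa4, another HSP110-type gene, was at 1.37 ± 0.05. Hspa1a had no control count and 77 counts with CSE, at least 24.4-fold higher against 3 counts over the control group. It passed the filter on low counts through the CSE libraries alone, so its place among the 9 follows from the filter, and the list's median is again 2.52 with this bound. Reads of Hspa1a, Hspa1b and Hspa8 may have been split or lost among near-identical copies. The exchange factor gene Hspbp1 changed least (0.20 ± 0.07), and its call ended with upper-quartile scaling (0.06, edgeR adjusted p = 0.45) and by total counts alone (0.01, edgeR adjusted p = 0.91). It also ended without CSE replicate 1 (0.14, edgeR adjusted p = 0.11) and without control replicate 3 (0.16, edgeR adjusted p = 0.096), which leaves 8 of 9.

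Partners of BAG3 in selective autophagy and transport to the aggresome had 6 of 12 tested called higher and 5 lower. Stx7 did not pass, and the median was 0.05. The shares over all tested genes were 36.3% higher and 37.5% lower. The autophagy receptor gene Sqstm1 had the largest log2 fold change of the list, at 5715 ± 292 CPM against 260.2 ± 4.54 CPM (4.46 ± 0.05). Ywhag, which encodes the 14-3-3 gamma protein of aggresome transport, was at 1.61 ± 0.04 and is the next protein-coding gene beside Hspb1 in RefSeq. Flnc, the gene of filamin C, which is a client of BAG3, was at 0.79 ± 0.05.

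Against these, Synpo2, the gene of the adaptor that ties BAG3 to autophagosome membranes, fell from 7.57 ± 0.682 to 0.952 ± 0.165 CPM (−2.98 ± 0.20, edgeR adjusted p = 3.8e-10). Its relative Synpo was at −1.20 ± 0.13, Wipi1 at −0.29 ± 0.06 and Stub1, the gene of the ligase CHIP, at −0.24 ± 0.07. Flna and Hdac6 were listed at 0 in all 6 libraries, and no value is drawn from them. Scaling by total counts alone gave 4 higher and 6 lower in this list, and with it Stx7 was called lower (−0.37). The same scaling gave 3749 higher and 6319 lower over all tested genes, against 4867 and 5027 with TMM.

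Partners of the other BAG proteins had 3 of 8 tested called higher and 3 lower, with a median of −0.05. These counts are near the shares over all tested genes, 36.3% higher and 37.5% lower. Tnfrsf1a, the TNF receptor gene bound by BAG4, had 194 ± 3.03 CPM with CSE and 104 ± 4.33 CPM in the control (0.90 ± 0.05). Siah1, the gene of a BAG1-bound ubiquitin ligase, was at 0.21 ± 0.08, a call that ended with upper-quartile scaling (0.07) and total counts alone (0.02). It ended too without CSE replicate 2 (0.21, edgeR adjusted p = 0.061), control replicate 1 (0.14, edgeR adjusted p = 0.15) or control replicate 3 (0.18, edgeR adjusted p = 0.093). Bcl2, the survival gene after which BAG1 was named, was low in both groups, at 0.698 ± 0.298 against 1.82 ± 0.249 CPM (−1.37 ± 0.34). It had 7 to 17 counts with CSE and 31 to 35 in the control. The filter on low counts was met in full by its control libraries only. Lrrk2, a kinase gene tied to BAG5, and Stub1 were at −0.23 ± 0.07 and −0.24 ± 0.07. Park2, the parkin gene, and Pink1 did not pass.

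Phosphorylation changes the oligomer size of small heat shock proteins, and the list of their kinases also held the p38 kinases and p38 activators that act upstream. Of its 12 tested genes 6 were called lower and 1, Mapkapk5, higher (0.52 ± 0.06), with a median of −0.43. Among all tested genes the shares were 37.5% lower and 36.3% higher. The count of lower genes was 8 by total counts alone, 7 with upper-quartile scaling and without CSE replicate 1, and 5 with DESeq2. The count over all tested genes moved as well, from 5027 lower with TMM to 6319 by total counts alone and 5990 with upper-quartile scaling. It was 4899 without CSE replicate 1 and 4641 with DESeq2. The lowest value was that of Map2k6, a p38 activator gene, on 2 to 4 counts with CSE and 12 to 20 in the control (−2.57 ± 0.50), and it passed the filter through the control libraries alone. Mapk14, the p38 alpha gene, dropped by 1.17 ± 0.06, from 101 ± 1.56 to 44.8 ± 3.68 CPM. Prkaca, a protein kinase A subunit gene, was at −0.99 ± 0.07, Prkd3 at −0.51 ± 0.05 and Prkd1 at −0.36 ± 0.07. Mapkapk2, whose product is the main kinase of HSP27, had 148 ± 3.85 CPM with CSE and 138 ± 6.26 CPM in the control and did not pass (0.09 ± 0.05, edgeR adjusted p = 0.11), and its value was below 0 on other scalings (−0.05 by upper quartile, −0.10 by total counts).

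Filament genes, whose products small heat shock proteins bind, had 3 of 8 tested called higher and 3 lower, with a median of −0.10. This split, too, is near that over all tested genes, 36.3% higher and 37.5% lower. The beta actin gene Actb was at −1.11 ± 0.05, Actg1 at −0.80 ± 0.11 and Lmna, the lamin A gene, at −0.37 ± 0.05. Krt8, a keratin gene, was at 2.06 ± 0.21 on low levels of 6.06 ± 1.16 against 1.46 ± 0.225 CPM, Nes, the nestin gene, at 0.90 ± 0.18, and the vimentin gene Vim at 0.29 ± 0.04. The desmin gene Des, whose product is a client of alpha-B crystallin, was at 1.01 ± 0.340 and 1.51 ± 0.247 CPM and did not pass, but was called lower by total counts alone (−0.77, edgeR adjusted p = 0.037).

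**Figure D5:**
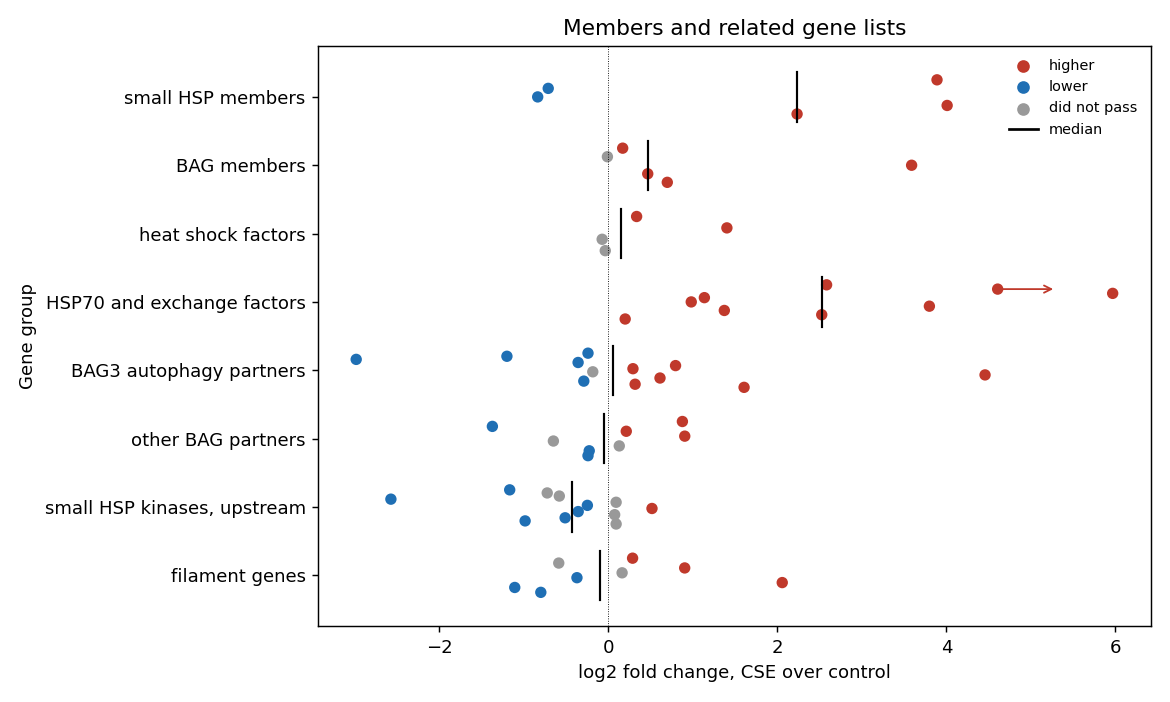
Log2 fold change of CSE over control (horizontal axis) of each tested member and each tested gene of the related lists named at the left. Each group has its own row, and the further family genes Hspb2, Hspb11 and Bag6 are not drawn. The vertical bar is the median, and the point colour gives the call at an adjusted p under 0.05. The arrow marks Hspa1a, which is drawn at its lower bound, and the HSP70 row lies to the right of 0 in all 9 genes, while the kinase row lies mostly to the left.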

How the data were processed

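The authors deposited a table of raw read counts per gene symbol, with 1 column for each of the 6 libraries and no normalization. HISAT2 2.0.4 and the build Rnor_6.0 are named in the submitters' processing notes. None of the sources used here gives the counter, its strand setting or the annotation. Columns were assigned to samples by name. Genes were filtered with filterByExpr, scaled with TMM and tested with edgeR 4.0.16 (quasi-likelihood F test, 2-sided) in R 4.3.3, with Benjamini-Hochberg adjustment and a threshold of 0.05. The standard error is the log2 fold change divided by the square root of F. Ratios within a library used a prior count of 0.5, and likeness was searched among genes of a mean of at least 5 CPM. The fitting code was tested on simulated data. Each library was counted as 1 replicate. Pairs of libraries within a group differed by a chi-square per degree of freedom of 3.24 to 5.74. This value does not show whether they stem from separate cultures or animals.

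Members and lists were chosen with earlier results of these data known. The rule named all members, every further family gene, and from each list the 4 genes with the smallest adjusted p and those moving against its majority. Some list genes that the rule names are not reported here, though the list counts and medians hold them. Hspa1a, Hspbp1, Siah1, Park2, Pink1, Prkd1, Map2k6, Mapkapk2, Actg1, Nes, Des, overlapping or neighbouring genes and named markers stand outside it or were picked after their values were seen. Alternatives were RLE, upper-quartile and total-count scaling, no filter, DESeq2 1.42.0, limma-voom (limma 3.58.1), leaving out each library, and the replicate number as a block. Symbols, neighbours and promoters came from RefSeq tables of GRCr8.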

Additional observations from a re-analysis of the deposited data

How the results depend on the processing

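Hspb1, Hspb8, Cryab, Bag3, Bag4 and Bag5 were called higher and Hspb6 and Hspb7 lower under all 13 alternatives to the edgeR fit. Their log2 fold changes ranged from 3.70 to 3.97 for Hspb1, 3.82 to 4.07 for Hspb8, 2.04 to 2.32 for Cryab, 3.40 to 3.68 for Bag3, 0.28 to 0.53 for Bag4, 0.51 to 0.76 for Bag5, −0.90 to −0.66 for Hspb6 and −1.02 to −0.77 for Hspb7. Bag1 turned to −0.019 by total counts alone. Bag2 turned to 0.01 with RLE scaling (0.0088) and DESeq2 (0.0089), and leaving out 1 library gave it values from −0.045 to 0.025, above 0 without CSE replicate 3 (0.025) and control replicate 3 (0.011). The cause of these turns was not tested. The members counted 6 higher and 3 lower under upper-quartile and total-count scaling, and 6 and 2 without control replicate 1. Of all called genes 49.2% were higher with TMM, 40.3% with upper-quartile scaling and 37.2% by total counts alone. With the replicate number as a block, 7 members were higher and 2 lower and no member's call changed, and all tested genes gave 4821 higher and 4935 lower. Deviations of same-numbered libraries had correlations of −0.09, 0.00 and −0.09, and no library correlated best with its own number, so the numbers were not taken as pairs. Ratios and family sums kept their direction in all 7 alternatives each. Bag5 rests on 35 to 74 counts per library, the fewest among the members, which limits its precision.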
